A study of Mus musculus with 6 samples.

Results

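Centromere and kinetochore genes were taken from the array by symbol: every non-control probe named Cenp plus 1 letter, or named Ndc80, Nuf2, Spc24, Spc25, Dsn1, Nsl1, Pmf1, Mis12, Casc5, Zwint, Mis18a, Oip5, Ska1, Ska2, Ska3, Zw10, Bub3, Mad2l1, Mad1l1 or Sgol1. The rule found 50 of the 55681 non-control probes, which stand for 35 genes. Mis18a, Ska2 and Ska3 had no probe under these symbols. A probe was tested when all 3 arrays of either group read it well above background. That left 45 probes of 34 genes, and Cenpf alone was not kept.

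The centromere is the stretch of a chromosome where nucleosomes carry the histone H3 variant CENP-A. An inner network of CENP proteins sits on these nucleosomes all through the cell cycle, and the outer plate, built at mitosis from the KNL1, MIS12 and NDC80 complexes, grips the ends of spindle microtubules. Checkpoint proteins gather at kinetochores that lack microtubules and hold back anaphase. Erythroid precursors divide a limited number of times while they mature and then leave the cell cycle.

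The samples were G1E-ER-GATA-1 cells, a mouse erythroid precursor line without GATA-1 of its own that carries GATA-1 fused to the estrogen receptor's hormone-binding domain, so that estradiol activates it. One group of 3 samples received Foxo3 siRNA and the other group of 3 received nontargeting siRNA, by electroporation at 0 h and 24 h. All 6 samples received β-estradiol at 24 h, and RNA was harvested at 48 h, so the groups share 24 h of ER-GATA-1 activity and no sample without estradiol was analysed here. All samples come from 1 cell line. The comparison asks which genes depend on Foxo3, a forkhead transcription factor, in GATA-1-activated cells.

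Each RNA was read on its own 1-colour array, and a signal is given as log2 of the processed intensity minus the 75th percentile of its array. Foxo3 itself was read by a pair of probes that differed. The first gave −0.46, −1.29 and −1.89 for Foxo3 siRNA replicates 1 to 3 and 1.23, 1.28 and 1.12 in nontargeting replicates 1 to 3, a fall of 2.43 on the log2 scale (limma adjusted p = 0.00533), although the brighter second probe differed by 0.25 (adjusted p = 0.258). Foxo3 siRNA replicate 3 stood apart in quality, with 20343 spots well above background against 30619 to 37532 on the other arrays. All arrays lay on 1 slide: Foxo3 siRNA replicate 1 and the 3 nontargeting samples in row 1, Foxo3 siRNA replicates 2 and 3 in row 2. Of the 8 erythroid markers, all were kept. Tfrc was called higher by its brightest probe (its other probes had limma adjusted p = 0.183 and 0.189), and none was called lower. Alas2, Hba-a1 and Hbb-b1 were not called, at log2 differences of −0.41, −0.46 and −0.55 (limma adjusted p = 0.0525, 0.067 and 0.0719). Their groups did not overlap, as in 28.3% of all kept probes in the lower direction. The log2 summed erythroid signal was 11.6 to 12.1 with Foxo3 siRNA and 12.2 to 12.4 with nontargeting siRNA. Of 4 megakaryocyte markers, Itga2b and Gp1ba were called higher. Gp9 and Pf4 were not called, at −0.55 and −0.16 (limma adjusted p = 0.252 and 0.755). The summed megakaryocyte signals overlapped between groups at 5.24 to 6.09 and 5.24 to 5.87. The fibroblast markers Col1a1, Dcn and Pdgfra were above background on no array, and no gene of the T cell, B cell, macrophage, neutrophil and fibroblast lists was called in either direction by its brightest probe. The summed macrophage signal was nevertheless lower with Foxo3 siRNA, without overlap, at 2.28 to 2.71 against 2.91 to 3.79. So was Col1a2, the 1 fibroblast gene kept, at −2.35 to −2.31 against −2.24 to −1.67, while T cell, B cell and neutrophil sums overlapped. The part of these markers in the results was not tested. In such bulk RNA, a change in the share of cells in division and a change in RNA per cell cannot be told apart.

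Most kinetochore genes that changed were higher with Foxo3 siRNA. Of the 34 kept genes, each read by its brightest probe, 20 were called higher, 1 was called lower and 13 were not called at an adjusted p under 0.05 (limma, two-sided, adjusted over all kept probes). Over all 26991 kept probes, 25.6% were called, 12.2% higher and 13.4% lower. The median log2 fold change was 0.71 over the 34 genes and −0.16 over all kept probes, a gap of 0.88. Fold changes of at least 2 were found for 14 genes, all called higher, against 3.68% of all kept probes. In 25 genes every Foxo3 siRNA value lay above every nontargeting value and in 1 gene every value lay below, against 21.5% and 28.3% of all kept probes. Scaling each array to its median instead moved the median of all probes to 0.15 and of the 34 genes to 1.03, with 20 genes higher and 0 lower, and the share of higher calls among all calls went from 47.6% to 77.2%. The gap of 0.88 was the same under both scalings, since the change of scaling adds nearly the same amount to every gene. It also took Oip5, Pmf1 and Zw10, none of them called, from below 0 to 0.21, 0.20 and 0.15.

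**Figure D1:**
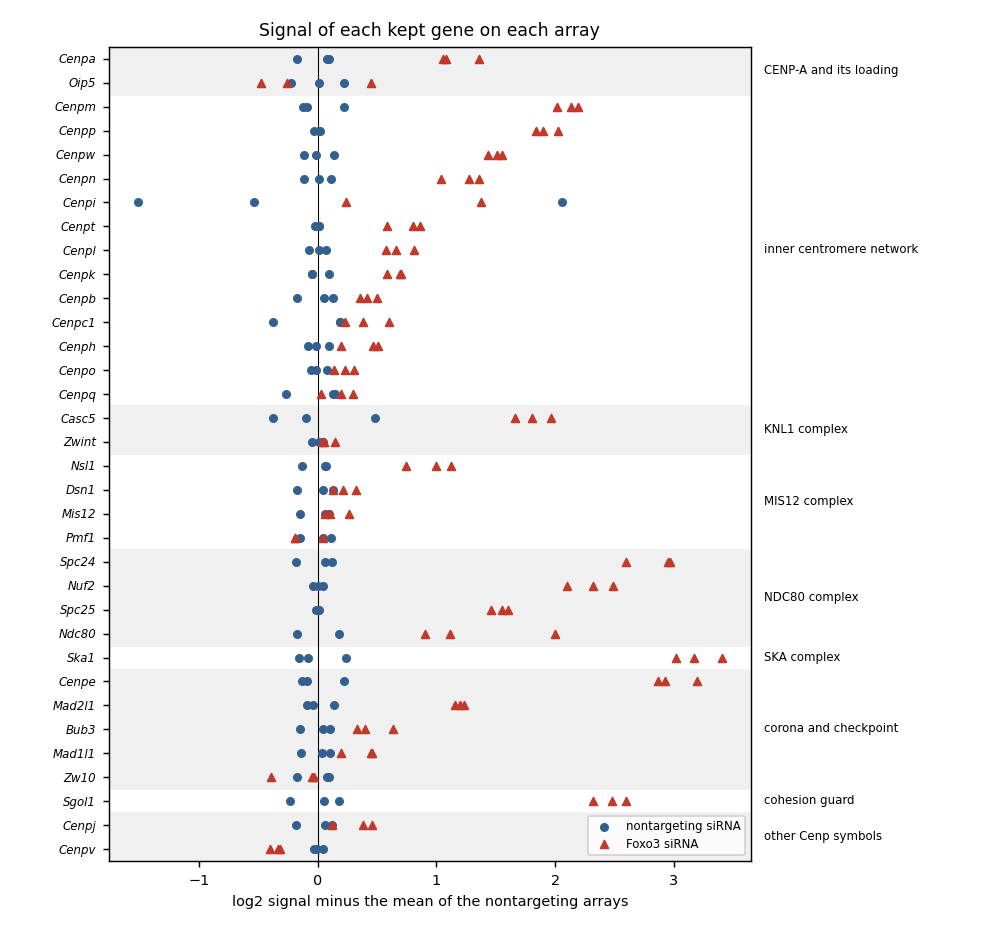
Log2 signal of the 34 kept genes on each array, less the mean of the nontargeting arrays (horizontal axis); triangles are Foxo3 siRNA samples and circles nontargeting samples, with genes (vertical axis) grouped by role. Triangles stand to the right of all circles in 25 genes and to the left in Cenpv alone, and the nontargeting circles of Cenpi spread over more than the shift of any gene.

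The mean over the 34 genes was 1.75, 1.95 and 1.94 in Foxo3 siRNA replicates 1 to 3 and 0.79, 0.86 and 0.99 in nontargeting replicates 1 to 3. These array means did not overlap between the groups. Within the Foxo3 siRNA group, replicate 1 was the lowest sample for 21 genes and replicate 2 the highest for 19. Replicate 1 is also the one Foxo3 siRNA sample in slide row 1. Against the 3 nontargeting samples of that row alone, the median log2 change was 0.59 over the genes and −0.07 over all probes tested there.

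CENP-A, the histone variant that marks the centromere, rose while Oip5, a MIS18-complex subunit needed to load it, did not pass the test. Cenpa gave 4.78, 4.51 and 4.48 with Foxo3 siRNA against 3.50, 3.52 and 3.25 in the nontargeting group. The groups were clear of each other, with a fold of 2.24 (log2 1.17, SE 0.140, n = 3 per group, limma adjusted p = 0.00347). The Cenpa probe spans a splice junction, so that its 60 bases cover 471 bases of genome (mm9, chr5:30974916-30975386, plus strand) and only spliced RNA matches it whole; it is shown because the signal then comes from processed transcript.

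Cenpa probe: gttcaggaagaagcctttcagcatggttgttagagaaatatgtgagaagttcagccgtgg

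Oip5 gave −0.19, 0.03 and 0.74 with Foxo3 siRNA against 0.06, 0.30 and 0.51 in the nontargeting group. Its groups overlapped, and the log2 difference was −0.10 with a 95% confidence interval from −0.72 to 0.53 (limma adjusted p = 0.787). That interval ends below the 0.83 at which the interval of Cenpa begins.

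The inner centromere network rose in part. Of its 13 kept genes, 8 were called higher, 0 lower and 5 were not called. Cenpm, a small-GTPase-like subunit of the CENP-HIKM complex, had the largest change of the network as reported: −0.18, 0.00 and −0.06 with Foxo3 siRNA against −2.28, −1.98 and −2.32 in the nontargeting group. No array of one group came near the other, and the fold was 4.33 (log2 2.12, SE 0.135, n = 3 per group, limma adjusted p = 0.000782). With normexp correction Cenpm gave 1.42 on the log2 scale, behind Cenpp at 1.45. The Cenpm probe also crosses a splice junction (mm9, chr15:82070363-82071790, minus strand).

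Cenpm probe: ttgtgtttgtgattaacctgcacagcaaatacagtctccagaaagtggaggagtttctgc

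Cenpk, of the same complex, rose by less. Its brightest probe gave 1.83, 1.94 and 1.93 against 1.19, 1.34 and 1.19, a log2 change of 0.66 (limma adjusted p = 0.00842), and its second probe gave 0.57. Cenph, the third subunit, gave 3.04, 3.08 and 2.78 with Foxo3 siRNA against 2.56, 2.67 and 2.50 in the nontargeting group. Although the groups did not overlap, its difference of 0.39 missed the threshold (adjusted p = 0.0674). Cenpi could hardly be measured: it gave −1.20 and −0.06 with Foxo3 siRNA, where replicate 3 was an outlier spot and left out of the fit, and −1.98, −2.96 and 0.61 with nontargeting siRNA. Its 95% interval ran from −1.86 to 3.48 on the log2 scale, wide enough to hold the change of each other kept gene of the rule.

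In the CENP-LN pair, which reads the CENP-A nucleosome, both genes rose. Cenpn gave −0.02, 0.30 and 0.22 with Foxo3 siRNA against −1.05, −0.95 and −1.18 in the nontargeting group, a log2 change of 1.22 (SE 0.131, n = 3 per group, limma adjusted p = 0.00251). Its partner Cenpl rose by 0.68 with the brightest probe and by 0.93 with the other. In the CENP-OPQ group, which helps to recruit Polo-like kinase and binds microtubules, the subunits parted. Cenpp gave 0.21, 0.40 and 0.27 against −1.65, −1.61 and −1.61, a fold of 3.78 with an adjusted p of 0.000619. Its nontargeting values lie within 0.05 of each other. A second Cenpp probe was too dim to keep, with overlapping groups.

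Cenpo gave 2.20, 2.04 and 2.13 with Foxo3 siRNA against 1.84, 1.88 and 1.97 in the nontargeting group. Its values were just clear of each other, but the difference of 0.22 was not called (limma adjusted p = 0.156), and its second probe gave 0.38 (adjusted p = 0.0659). Cenpq, with the smallest change of the network as reported, gave 2.13, 2.23 and 1.97 against 1.67, 2.07 and 2.08. These groups overlapped, and its probes differed in sign: 0.17 for the brighter one and −0.27 for the other, neither of them called.

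Cenpw and Cenpt, histone-fold proteins that bind each other and link centromere DNA to the NDC80 complex, both rose. Cenpw gave 2.32, 2.43 and 2.39 with Foxo3 siRNA against 0.76, 0.87 and 1.01 in the nontargeting group, a fold of 2.82 (log2 1.50, SE 0.115, n = 3 per group, limma adjusted p = 0.00106). The fold of Cenpt was 1.68. Cenpc1, which encodes CENP-C, the scaffold between CENP-A and the MIS12 complex, gave 0.54, 0.70 and 0.92 against −0.06, 0.50 and 0.50. The highest nontargeting values almost met the lowest Foxo3 siRNA value, and the difference of 0.41 was not called (adjusted p = 0.157). Cenpb, a protein that binds a motif in centromere repeat DNA, gave 3.66, 3.74 and 3.60 against 3.37, 3.29 and 3.06. Its rise of 0.42 lay at the edge of the threshold (adjusted p = 0.0495) and was lost in 12 of 18 alternative analyses, every one that left out an array among them; a second probe gave 0.44 (adjusted p = 0.0637) and one more was not kept.

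**Figure D2:**
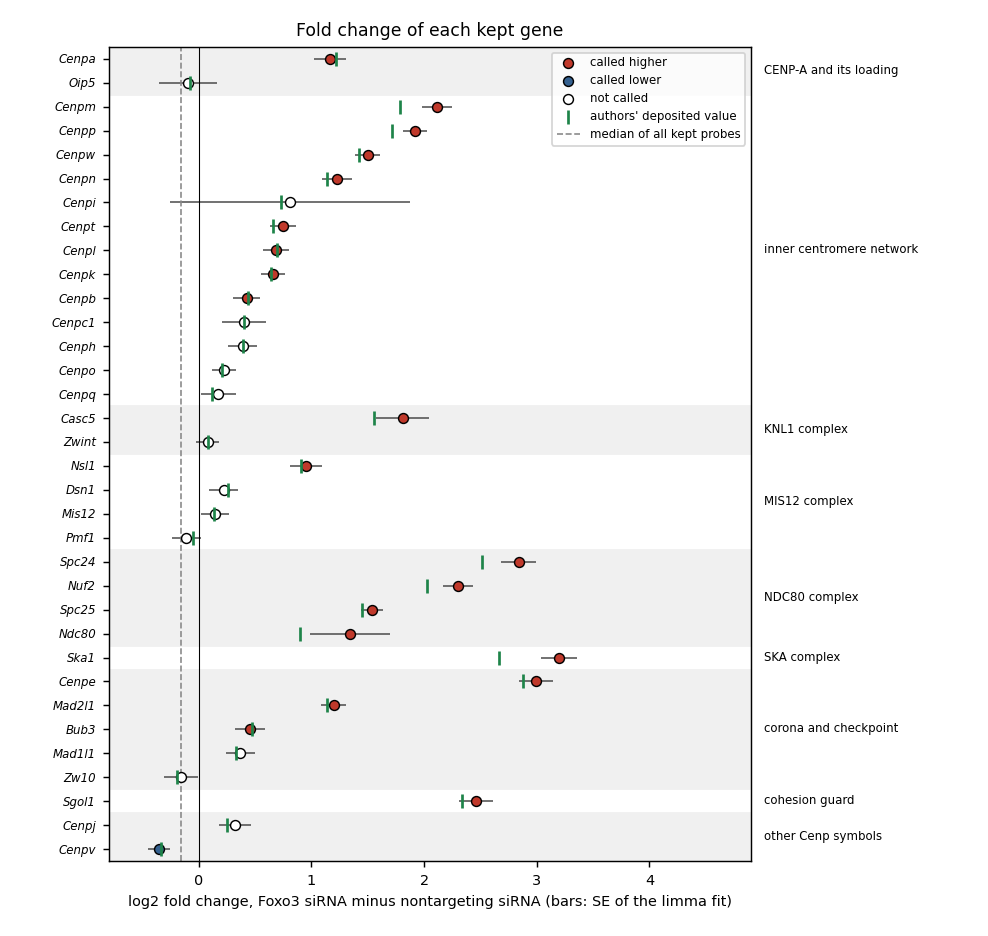
Log2 fold change of each kept gene, Foxo3 siRNA minus nontargeting siRNA (horizontal axis), with bars for the SE of the limma fit; filled circles were called, open ones were not, green ticks are the values of the authors' deposited table, and the dashed line is the median of all kept probes. Ska1, Cenpe, Spc24, Sgol1 and Nuf2 reach furthest right, MIS12 complex genes other than Nsl1 stay near 0, and the SE of Cenpi is several times that of other genes.

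In the outer plate, all 4 NDC80 genes were called higher (Ndc80 itself in only 6 of 17 alternatives), as were 1 of 4 MIS12 genes and 1 of 2 KNL1 genes. Casc5, the array's name for Knl1, the large scaffold on which BUB checkpoint proteins dock, gave −0.80, −0.64 and −0.95 with Foxo3 siRNA against −2.12, −2.71 and −2.98 in the nontargeting group. No values overlapped, and the fold was 3.50 (log2 1.81, SE 0.231, n = 3 per group, limma adjusted p = 0.00411), though normexp background correction put the log2 change at 1.05. A second Casc5 probe was above background on no array. The probe that read the gene joins exons 5179 bases apart at its outer ends (mm9, chr2:118914569-118919747, plus strand).

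Casc5 probe: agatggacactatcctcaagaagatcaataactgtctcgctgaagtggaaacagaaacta

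Zwint, which binds Knl1 and brings in the ZW10 complex, did not pass the test at 8.48, 8.38 and 8.39 with Foxo3 siRNA against 8.29, 8.38 and 8.35 in the nontargeting group. The groups overlapped, and the 95% interval of the log2 difference, −0.17 to 0.32, leaves no room for a 2-fold change. Its second probe gave −0.06.

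In the MIS12 complex, which joins the inner network to the outer plate, Nsl1 alone was called. It gave 2.28, 2.16 and 1.91 with Foxo3 siRNA against 1.03, 1.23 and 1.24 in the nontargeting group, a fold of 1.93 (log2 0.95, SE 0.140, n = 3 per group, limma adjusted p = 0.00618). A second Nsl1 probe further upstream in the gene read 0.93 and was called as well. Dsn1, the subunit through which Aurora B regulates the complex, gave 2.70, 2.90 and 2.79 against 2.40, 2.63 and 2.70, barely apart, with a difference of 0.22 (adjusted p = 0.218).

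Mis12 gave −0.35, −0.15 and −0.31 with Foxo3 siRNA against −0.57, −0.32 and −0.36 in the nontargeting group. The groups overlapped and the difference was 0.14 (95% interval −0.15 to 0.44). Pmf1, the fourth subunit, gave 2.87, 2.87 and 3.11 against 2.91, 3.17 and 3.10, with a difference of −0.11 (interval −0.42 to 0.20) that turned to 0.06 on its second probe. Its values overlapped on both probes.

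NDC80 is a rod with a Ndc80 and Nuf2 head that binds the microtubule and a Spc24 and Spc25 foot that anchors it. Spc24 had the largest change of the 4 genes, at 0.81, 1.17 and 1.18 with Foxo3 siRNA against −1.72, −1.66 and −1.96 in the nontargeting group. The gap between the groups exceeds the spread of each several times over, and the fold was 7.15 (log2 2.84, SE 0.153, n = 3 per group, limma adjusted p = 0.000593). Normexp correction put Spc24 at 2.15 and Nuf2 at 1.61 on the log2 scale. Nuf2 gave 0.08, 0.47 and 0.30 against −2.02, −1.98 and −2.06, a fold of 4.93. A second Nuf2 probe read 2.37 on the log2 scale beside 2.30 for the first. Another, dimmer one was above background on 2 Foxo3 siRNA arrays and 0 nontargeting arrays, with a fold of 1.38 over a raised nontargeting mean. For such a probe the nontargeting mean was raised, array by array, to the lowest signal among probes well above background. Foxo3 siRNA replicate 3 did not clear background there and was used as read, so 1.38 is not a firm lower bound.

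Spc25 gave 3.18, 3.27 and 3.32 with Foxo3 siRNA against 1.71, 1.72 and 1.73 in the nontargeting group. Its arrays agree closely within each group, and the fold was 2.90 (log2 1.54, SE 0.101, adjusted p = 0.000824 by limma, n = 3 per group). Ndc80 had the smallest change of the complex as reported, and the one with the largest SE: −0.24, 0.86 and −0.03 against −0.96 and −1.32, with nontargeting replicate 3 left out as an outlier spot. The groups did not overlap, and the log2 change of 1.34 (SE 0.354, adjusted p = 0.0447) lost its call in 11 of 17 alternatives. With outlier spots kept it was 0.84 (adjusted p = 0.225), and in the authors' deposited table it was 0.89 (adjusted p = 0.315). Its probe is a junction probe too (mm9, chr17:71860793-71861755, minus strand), shown because it is the 1 probe on which the reading of Ndc80 rests.

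Ndc80 probe: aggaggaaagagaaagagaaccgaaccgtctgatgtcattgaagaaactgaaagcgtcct

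Ska1, which with its partners tracks microtubule ends and loads onto NDC80, had the highest fold of the 34 kept genes as reported. It gave 0.27, 0.66 and 0.43 with Foxo3 siRNA against −2.90, −2.51 and −2.82 in the nontargeting group. The groups lay far apart, and the fold was 9.16 (log2 3.19, SE 0.161, n = 3 per group, limma adjusted p = 0.000491). That rank is not fixed: Cenpe was above Ska1 in the authors' deposited table (2.88 against 2.66 on the log2 scale), with array weights (3.13 against 3.12) and with normexp correction (2.77 against 2.13), where Sgol1 and Spc24 also passed it at 2.20 and 2.15. Sgol1, or shugoshin, guards centromere cohesion until anaphase; it gave 1.94, 2.21 and 2.09 against −0.62, −0.33 and −0.21, a fold of 5.51 (adjusted p = 0.000714).

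Among the corona and checkpoint genes 3 of 5 kept genes rose. Cenpe, a kinesin of the fibrous corona that carries chromosomes to the spindle equator, gave 3.07, 3.34 and 3.01 with Foxo3 siRNA against 0.37, 0.02 and 0.05 in the nontargeting group. No value of one group came near the other, and the fold was 7.97 (log2 2.99, SE 0.151, n = 3 per group, limma adjusted p = 0.000491). Mad2l1, which encodes MAD2, the checkpoint protein that binds the anaphase activator CDC20, gave 2.38, 2.35 and 2.31 against 1.11, 1.06 and 1.29 with its brightest probe. That is a fold of 2.29 (adjusted p = 0.00171).

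The 3 Mad2l1 probes did not give the same result. A second one rose by 0.87 (limma adjusted p = 0.00968). The third gave −1.59, −0.64 and −1.24 with Foxo3 siRNA against −1.56, −1.92 and −0.41 in the nontargeting group. Its groups overlapped widely, with a difference of 0.14 (adjusted p = 0.813). Its position, chr6:66490355-66490414 (mm9, plus strand), lies between those of the other two.

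Bub3, the WD-repeat partner of BUB1 and BUBR1, gave 4.35, 4.42 and 4.65 against 3.87, 4.06 and 4.12. These were apart, but the rise of 0.45 had an adjusted p of 0.0498 and was lost in 11 of 18 alternatives, again every one that left out an array. Mad1l1, which encodes MAD1, the anchor of MAD2, gave 0.71, 0.97 and 0.96 against 0.38, 0.61 and 0.55. Although its groups did not overlap, the difference of 0.37 was not called (adjusted p = 0.0792). Zw10, a subunit of the RZZ complex that recruits dynein, gave 1.23, 1.57 and 1.59 against 1.45, 1.69 and 1.71, overlapping, with a difference of −0.16 (95% interval −0.51 to 0.20).

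Cenpf, a large corona protein made mainly in late cell cycle, was too dim to keep. It gave −3.63, −1.89 and −3.63 with Foxo3 siRNA against −4.49, −5.57 and −5.78 in the nontargeting group. The groups did not overlap, but the probe cleared background on 2 of 3 Foxo3 siRNA arrays and 0 of 3 nontargeting arrays. Against the raised nontargeting mean the fold was 2.04. Foxo3 siRNA replicate 3 did not clear background and was used as read, so 2.04 is not a firm lower bound. Without the filter on dim probes the log2 change of Cenpf was 2.23 (limma adjusted p = 0.180), and without Foxo3 siRNA replicate 3 it was 2.52 (adjusted p = 0.0537).

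A pair of Cenp symbols encodes proteins of other roles. Cenpj, a centriole assembly protein, gave 1.52, 1.78 and 1.85 against 1.22, 1.46 and 1.52, which overlap, with a difference of 0.32 (adjusted p = 0.138). Cenpv, a protein linked to centromere organisation and microtubules, was the 1 gene called lower: 2.51, 2.45 and 2.53 with Foxo3 siRNA against 2.81, 2.84 and 2.89 in the nontargeting group. The groups did not overlap under this scaling, but its fall by 0.35 on the log2 scale (SE 0.0992, n = 3 per group, limma adjusted p = 0.0446) was lost in 13 of 18 alternatives and was −0.04 with scaling to the median.

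The shifts of subunits of 1 complex were set against each other. The difference between 2 subunits' signals on the same array does not depend on how arrays are scaled, and it was computed for 24 pairs within 7 complexes. Each pair was written with the larger change first, so the direction is fixed by that choice. In 18 pairs the values of the groups did not overlap; the share over pairs of other probes was not computed, and 21.5% and 28.3% of single kept probes had groups apart in the higher and lower direction. With 3 arrays against 3 the smallest two-sided exact permutation p is 0.1, and it was 0.141 after Benjamini-Hochberg adjustment over the 24 pairs, so no pair could pass 0.05. Cenpp minus Cenpo moved by 1.70, from −3.49, −3.49 and −3.58 in nontargeting samples to −1.99, −1.64 and −1.85 in Foxo3 siRNA samples.

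Within these complexes the larger movers were Cenpm over Cenph, by 1.73, and Casc5 over Zwint, also by 1.73. Spc24 moved by 1.30 more than Spc25, its partner in the foot of the rod. Nsl1 moved by 1.06 more than Pmf1, and Cenpw by 0.75 more than Cenpt. The pairs that overlapped between the groups were Dsn1 with Mis12 (0.08), Cenpo with Cenpq (0.05), Spc25 with Ndc80 (0.20) and the 3 pairs with the poorly measured Cenpi. Pair differences do depend on background correction, and pairs were not recomputed under normexp correction. There the log2 changes were 2.15 for Spc24 and 1.49 for Spc25, and 1.05 for Casc5 and 0.11 for Zwint. Cenpm gave 1.42 and Cenph 0.39, so these gaps were smaller.

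**Figure D3:**
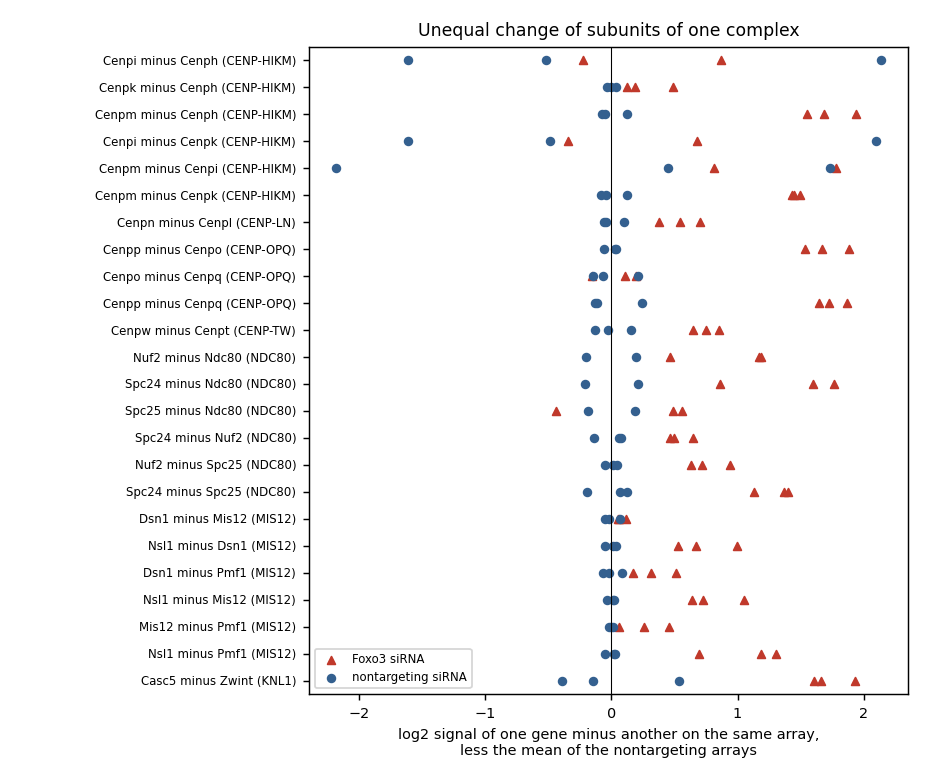
Signal of one subunit minus another on the same array, less the mean of that difference over the nontargeting arrays (horizontal axis, log2), for 24 pairs within 7 complexes (vertical axis); triangles are Foxo3 siRNA samples and circles nontargeting samples. In 18 pairs the triangles lie to the right of all circles, with Cenpp minus Cenpo, Cenpp minus Cenpq, Cenpm minus Cenph and Casc5 minus Zwint shifted by about 1.7.

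Analyses under other settings sorted the 20 genes called higher. Calls of Cenpe, Cenpm, Cenpp, Cenpw, Nuf2, Sgol1, Ska1, Spc24 and Spc25 held in all 18 alternatives, slide row 1 alone included. For Cenpe the log2 change in that row was 2.93 (limma adjusted p = 0.0214), for Ska1 it was 3.01 and for Spc24 2.59. Cenpa, Casc5, Cenpn and Nsl1 kept their call in 16 alternatives and Mad2l1 in 17. The calls of Cenpk and Cenpt held in 14 alternatives and that of Cenpl in 13. Bub3, Cenpb and Ndc80 were called in 7, 6 and 6 of them.

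**Figure D4:**
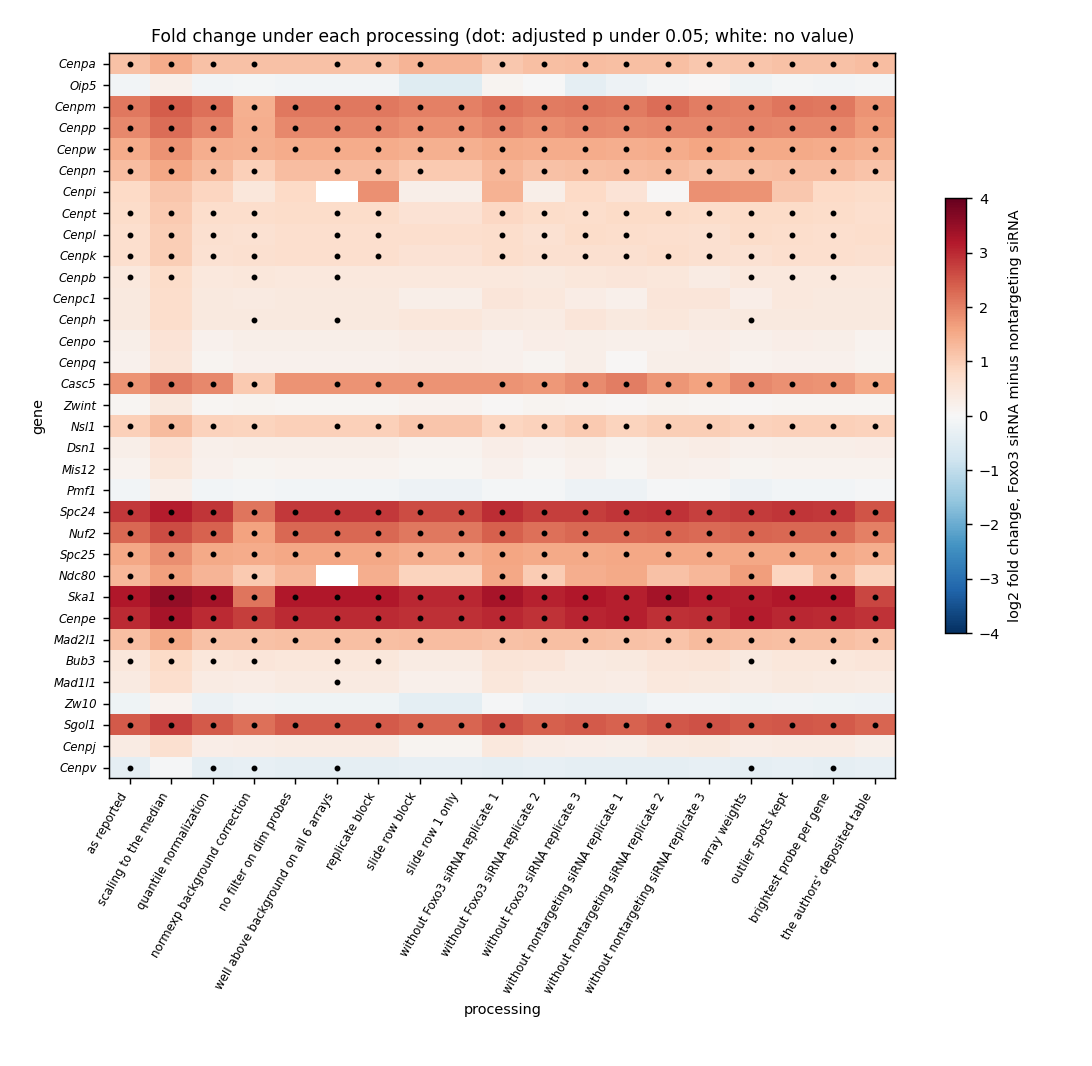
Log2 fold change (colour) of each kept gene (vertical axis) as reported and under 18 alternative analyses (horizontal axis); a dot marks an adjusted p under 0.05 and white cells have no value. Rows of Cenpe, Cenpm, Cenpp, Cenpw, Nuf2, Sgol1, Ska1, Spc24 and Spc25 carry a dot in every column, and the columns without a filter on dim probes and for slide row 1 alone have 10 and 9 dots.

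Other genes of the kinetochore and centromere, outside the symbol rule, were read from a list of 40 symbols. Of these, 36 had a probe and 28 were kept: 19 were called higher, 5 lower and 4 were not called. Kif2c, among the 19, passed the filter only through the Foxo3 siRNA arrays. With the filter on all 6 arrays, 18 of 26 were called higher, against 22.3% of all probes tested there. Among all kept probes, 12.2% were called higher and 13.4% lower. The median change of the 28 genes was 0.84 on the log2 scale. Bub1, the checkpoint kinase docked on Knl1, gave 0.28, 0.54 and 0.34 with Foxo3 siRNA against −3.52, −3.40 and −3.48 in the nontargeting group, a fold of 14.4 (limma adjusted p = 0.000387). Bub1b, which encodes BUBR1, had a fold of 7.57. Birc5, or survivin, of the chromosome passenger complex, had a fold of 9.08. Folds were 5.61 for the kinase Plk1, 5.51 for Cdc20, 5.38 for Kntc1 of the RZZ complex and 5.06 for Spag5, or astrin.

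Kif2c, a microtubule-depolymerising kinesin, was at least 7.38-fold higher by its kept probe, which cleared background on all 3 Foxo3 siRNA arrays and 0 nontargeting arrays. A second Kif2c probe, not kept, cleared background on 2 and 1 of them and gave −1.90, −1.45 and −1.63 against −3.20, −4.12 and −4.05. Remaining partners of the inner network were measured in part: Mlf1ip, which encodes CENP-U, rose by 1.07 and Itgb3bp, which encodes CENP-R, by 0.61. Stra13, which encodes CENP-X, rose by 0.81 (limma adjusted p = 0.00986), while Apitd1, which encodes CENP-S, gave −0.45 (adjusted p = 0.278). A second Apitd1 probe, not kept, ran the other way without overlap, at −2.69, −2.36 and −3.15 against −3.60, −3.68 and −3.76. Hjurp, the chaperone that deposits CENP-A, rose by 2.01 with its brightest probe, at −1.21, −1.35 and 0.27 against −2.71, −2.55 and −3.05. Foxo3 siRNA replicate 3 is the high array there, and a second kept Hjurp probe rose by 0.91 (limma adjusted p = 0.0121).

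The 5 genes of this list called lower, of 28 kept, differ in role, and 13.4% of all kept probes were called lower. Clasp1, which stabilises microtubule plus ends, gave 2.18, 2.06 and 2.09 with Foxo3 siRNA against 3.34, 3.35 and 3.46 in the nontargeting group, a fall by 1.27 on the log2 scale (limma adjusted p = 0.00130). Mad2l1bp, which encodes the p31comet protein that takes MAD2 out of its active form, fell by 0.90. Its values were 6.45, 6.22 and 6.16 against 7.00, 7.14 and 7.40. The other three were Rsf1, a chromatin remodelling subunit, Dync1h1, the dynein heavy chain, and Ppp2r5a, a regulatory subunit of protein phosphatase PP2A, which fell by 0.59, 0.47 and 0.40. Clasp1 alone of the 5 was still called with scaling to the median, at −0.96; there Mad2l1bp gave −0.59 (limma adjusted p = 0.123) and the other three lay between −0.28 and −0.09.

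Promoter sequence was examined because most of these genes moved in 1 direction. RefSeq promoters (GRCm38.p6, 250 bases before to 50 after the start) were at hand for 32 of the 35 genes. The letters TTTGAA, the core of the cell cycle homology region bound by the DREAM and MuvB complexes, were found on either strand in 12 of 32 genes (37.5%) against 20.2% of 27025 genes. CCAAT, the word bound by NF-Y, was found in 19 of 32 (59.4%) against 41.1%, and both words together in 9 of 32 (28.1%) against 8.97%. Either of the E2F words TTTCCCGC and TTTGGCGC was found in 4 of 32 (12.5%) against 1.80%. GTAAACA, a forkhead core word, was found in Nuf2, Casc5 and Cenpk (9.38%) against 4.05%. A match is a description of letters and not a bound site.

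Of the genes called higher, 17 had a promoter entry, and 8 of the 17 held TTTGAA and 10 held CCAAT. Among the other 15 genes 4 held TTTGAA and 9 held CCAAT. The last 120 bases before the start are shown for 4 genes called higher that hold at least 1 of these words there, and for Oip5, which was not called. These genes are examples and were not picked by a rule. Cenpe, Bub3, Cenpk and Cenpl, also called higher, hold such a word in the same stretch and are not shown. Nsl1, Ska1 and Spc24, called higher as well, had no promoter entry. Both words are in capitals, also where they lie on the other strand (then spelt TTCAAA and ATTGG), and in Cenpw they share 1 base.

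Cenpa (chr5:30666766-30666885, plus strand): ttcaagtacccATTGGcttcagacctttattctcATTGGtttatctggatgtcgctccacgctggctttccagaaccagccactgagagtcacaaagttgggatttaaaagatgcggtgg
Cenpn (chr8:116921620-116921739, plus strand): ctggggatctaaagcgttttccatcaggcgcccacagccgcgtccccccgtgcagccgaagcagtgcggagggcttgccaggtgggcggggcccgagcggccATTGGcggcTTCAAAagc
Cenpw (chr10:30200541-30200660, minus strand): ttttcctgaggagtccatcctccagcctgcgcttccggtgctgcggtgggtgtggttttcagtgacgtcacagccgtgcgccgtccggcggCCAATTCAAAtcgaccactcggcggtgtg
Spc25 (chr2:69206214-69206333, minus strand): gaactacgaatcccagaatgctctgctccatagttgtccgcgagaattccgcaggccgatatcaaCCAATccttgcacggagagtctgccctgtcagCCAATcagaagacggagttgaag
Oip5 (chr2:119618506-119618625, minus strand): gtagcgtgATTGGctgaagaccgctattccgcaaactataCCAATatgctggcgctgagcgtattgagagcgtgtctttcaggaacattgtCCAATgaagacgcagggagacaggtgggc

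Oip5 carries 3 CCAAT words in this stretch, more than any of the 4 genes called higher. A TTTGAA word, on either strand, also lies 17, 25 and 34 bases after the start in Cenpa, Spc25 and Oip5, outside the stretch shown.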

How the data were processed

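Total RNA of 6 samples was read on 1-colour Agilent mouse arrays. Per the file headers, the deposited spot intensity values come from Feature Extraction 10.7.3.1, after background subtraction, detrending and replacement of signals not above background by surrogates; no scaling between arrays is recorded. Per the submitters' processing notes, limma made the authors' deposited log2 fold change and p-value columns; the base of that fold change was read from the signals, and their normalization is not given in the sources used here.

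Control spots (3671 of 62976 per array) were left out and outlier spots set to missing. Signals were put on the log2 scale and scaled to the 75th percentile of their array, and repeat spots were averaged. Kept probes (26991; 50% or more of the spots of a probe well above background on every array of either group) were compared with limma 3.58.1 in R 4.3.3 (lmFit and eBayes, two-sided), with Benjamini-Hochberg adjustment over all of them. Each adjusted p is from this limma fit, except where the authors' table is named. Genes were read by their brightest kept probe. All 50 probes matched a RefSeq gene by accession or name; positions are those of the array design (mm9).

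In simulated data with 26863 probes, 80.6% of changes of 2 on the log2 scale were recovered, 29.9% of changes of 1 and 1.52% of changes of 0.5, with 3 false calls. Only 67, 67 and 66 probes of these sizes were changed there, against 25.6% of kept probes called in the data. Adjustment is stricter with so few changed probes, so these shares do not give the recovery in the real comparison. Array number limits the precision. Nothing in the labels says that replicates came from separate cultures, so a p-value covers only the spread among these RNA samples. The genes and lists were chosen with earlier results of these data known. Text values were named by rule: every member, and of the other genes the 8 with the smallest adjusted p and all called lower. Kif2c, Hjurp, Mlf1ip, Itgb3bp, Stra13 and Apitd1 were added after their values were seen. The 18 alternatives changed the scaling, background correction, filter, probe choice, outlier spots or array weights, added a replicate or slide row block, left out 1 array or row 2, or took the authors' table. Probe position within proteins was planned and not done.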

Additional observations from a re-analysis of the deposited data

How the results depend on the processing

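Directions of the called genes were the same in every alternative that gave a value (18, or 17 for Ndc80, which the filter on all 6 arrays removed). Of the 34 kept genes, 20 were called higher and 1 lower as reported, with 6900 calls over all probes and 19 other kinetochore genes higher. Without a filter on dim probes these were 10, 0, 635 and 10. With slide row as a block they were 14, 0, 1892 and 11, and the genes' median was 0.58. In slide row 1 alone they were 9, 0, 753 and 7, with a median of 0.59. The authors' deposited table gave 14, 0, 1116 and 10. Scaling to the median gave 20 and 0, with a median of 1.03, and outlier spots kept gave 18 and 0. Leaving out 1 array gave 16 to 18 higher and 0 lower, and 2706 to 6023 calls over all probes (2706 without nontargeting replicate 2, 3706 without nontargeting replicate 1, 3796 without Foxo3 siRNA replicate 3 and 3875 without Foxo3 siRNA replicate 2, 4230 without nontargeting replicate 3). The causes were not tested. The fit with a replicate block gave 18 higher and 0 lower. Deviations of same-numbered samples correlated at 0.16, −0.31 and 0.11, and those of differently numbered samples at −0.37 to 0.29. With 3 arrays per group these values cannot settle whether the numbers pair the samples. Signal over background limits dim genes. Cenpf was too dim to keep, and normexp correction lowered the log2 changes of Ska1, Spc24, Nuf2, Cenpm, Cenpp and Casc5 to 2.13, 2.15, 1.61, 1.42, 1.45 and 1.05. Cenpi was well above background on each array with a value. Its nontargeting values ran from −2.96 to 0.61, and 1 outlier spot was left out.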
